A study of Macaca mulatta with 2 samples.

Results

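The genes described here make, sense, move and remove cholesterol, and they were read in the prefrontal cortex of infant rhesus macaques with and without repeated sevoflurane anesthesia. The list held 37 symbols, grouped here by their known place in the pathway: 19 synthesis enzymes, 7 genes of the SREBP system, 6 genes of efflux and its LXR regulators, and 5 genes of intracellular transport, storage and turnover. Of the 37, 35 were found by symbol among the 33618 genes of the count table, and all 35 passed the filter that left 18050 genes tested (a level of at least 1 CPM, explained with the depths, in either library). CYP51A1 and CYP46A1 were not listed by symbol. Their NCBI gene identifiers in the RefSeq table of the macaque assembly MMU8v2.0 matched the rows LOC703490 and LOC705843, so their values are given apart and enter none of the counts or medians.

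The data were RNA sequencing read counts from 1 control (CON) and 1 sevoflurane (SEV) animal, both labelled as postnatal day 28 and as prefrontal cortex. The labels give 3 exposures of the SEV group, around postnatal days 7, 14 and 28, each for 4 h at 2.5 to 3% sevoflurane, whereas the study's methods name later days for the second and the third. By those methods the SEV animals were intubated and breathed oxygen, and the tissue was taken directly after the last exposure. How the CON animals were handled was not given in the sources used here. The study describes 3 animals per group, and the others were not analysed here. With 1 library per group there was no replicate check and no test, so each difference given is one between the libraries themselves, and animal and exposure cannot be told apart.

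The CON library held 16960880 reads on genes and the SEV library 9839105. Levels are given as reads and as CPM, the counts-per-million scale, after scaling by edgeR's TMM factors (0.991 for CON and 1.01 for SEV). On this scale 1 read was 0.0595 CPM in CON and 0.101 CPM in SEV. The ratio is the log2 of SEV over CON with a prior count of 2, and its 95% interval is the exact Clopper-Pearson interval of the share of reads in SEV, which covers counting error only. "Lower" and "higher" are used for genes whose interval excluded equal expression. The median ratio of all genes tested was -0.0048. The 7 Y-linked genes checked held 3 reads in CON and 4308 in SEV. By the study's methods all control animals were female and 1 sevoflurane animal was male. The libraries thus differed in the sex of the animal as well as in exposure, and these cannot be told apart.

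Brain cholesterol is made locally, because lipoproteins of the blood do not cross the blood-brain barrier. Synthesis runs from acetyl-CoA through mevalonate and farnesyl diphosphate to squalene, lanosterol and finally cholesterol. It is especially active while oligodendrocytes build myelin in infancy, since cholesterol is a main lipid of the myelin membrane. When sterols in the endoplasmic reticulum run low, SCAP escorts the transcription factor SREBP-2 to the Golgi for cleavage, and the enzymes of the pathway are transcribed. INSIG proteins hold SCAP back when sterols are plentiful, and oxysterols then activate the LXR receptors, which drive efflux genes.

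The synthesis enzymes were low in the SEV library. All 18 enzymes found by symbol had a ratio below 0, from -1.25 for DHCR7 to -0.01 for MVK, with a median of -0.73. The interval excluded equal expression for 14 of them (77.8%), against 28.1% of all genes that were lower. Their summed level was 1834 CPM in CON and 1073 CPM in SEV, or 58.5% of CON, and without HMGCS1, which held the most reads among them, it was still 65.4%. The 17 other cholesterol genes had a median of -0.02 and a summed level of 106% of CON.

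Of the 35 cholesterol genes, 6 (17.1%) were at least 2-fold lower, against 5.47% of all genes tested, and 11 (31.4%) were at least 1.5-fold lower, against 11.9%. All 6 of the former and 10 of the latter were synthesis enzymes. Lower at any size were 17 of the 35 (48.6%), against 28.1% of all genes. In the other direction, 1 cholesterol gene was at least 2-fold higher, against 7.56% of all genes, and the same gene was the only one at least 1.5-fold higher, against 14.4%. Higher at any size were 3 of the 35, against 28.4%. The plot of levels shows where the libraries parted.

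**Figure D1:**
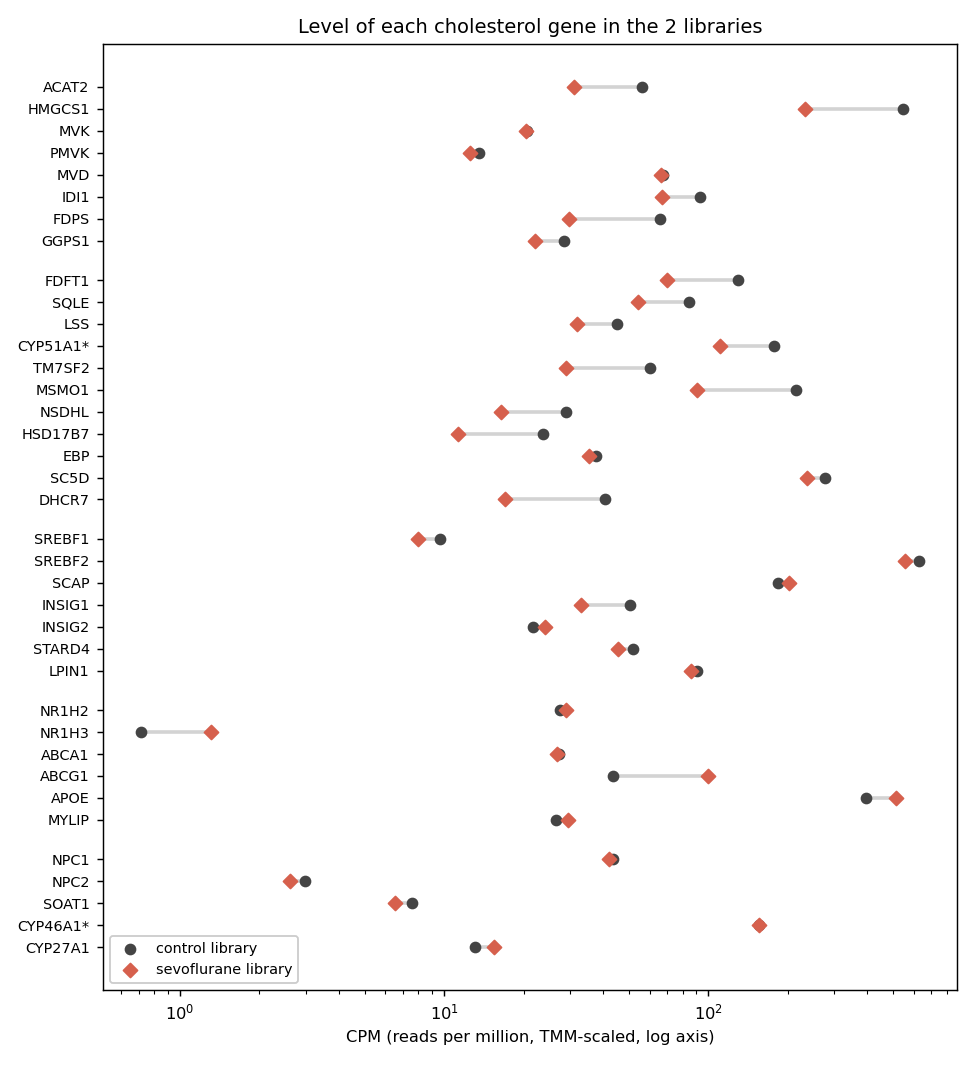
Level of each cholesterol gene in CPM (TMM-scaled, log axis) in the control library (grey circles) and the sevoflurane library (red diamonds), with genes ordered by role from synthesis at the top to turnover at the bottom. An asterisk marks the 2 genes matched by identifier. CPM is not corrected for transcript length, so levels are to be compared within a gene: HMGCS1 stood at 548 and 233 CPM, while CYP46A1 stood at 155 and 156 CPM.

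Among the mevalonate steps, the entry of the pathway and the step that makes farnesyl diphosphate were low in SEV, and the kinases and the decarboxylase between them had ratios near 0. HMGCS1, the cytosolic synthase that makes HMG-CoA, held 9217 reads (548 CPM) in CON and 2310 reads (233 CPM) in SEV. Its level in SEV was 42.4% of that in CON, with a ratio of -1.24 and an interval of -1.30 to -1.17. ACAT2, the cytosolic thiolase that supplies acetoacetyl-CoA to it, held 945 reads (56.2 CPM) in CON and 309 reads (31.1 CPM) in SEV. It was 1.81-fold lower (ratio -0.85, interval -1.04 to -0.67).

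FDPS, which joins isoprene units into farnesyl diphosphate, had 1106 reads (65.8 CPM) in CON against 296 reads (29.8 CPM) in SEV, a ratio of -1.14 (interval -1.33 to -0.96). The neighbouring step was lower by less. IDI1, the isomerase that prepares the isoprene units, had 1565 and 663 reads, or 93.1 and 66.8 CPM, and a ratio of -0.48. GGPS1, which leads off to geranylgeranyl diphosphate for protein prenylation, had 477 and 219 reads and a ratio of -0.36 (interval -0.60 to -0.13).

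The steps from mevalonate to isopentenyl diphosphate had ratios near 0. The mevalonate kinase MVK had 345 reads (20.5 CPM) in CON and 203 reads (20.4 CPM) in SEV. The decarboxylase MVD had 1134 reads (67.5 CPM) and 659 reads (66.4 CPM). PMVK, the second kinase, had 228 and 125 reads (13.6 and 12.6 CPM). Their ratios of -0.01, -0.02 and -0.11 had intervals that included 0, and the interval of MVD, -0.16 to 0.12, lay wholly above those of ACAT2, HMGCS1 and FDPS. MVD thus differed in ratio from ACAT2, HMGCS1 and FDPS by more than counting error.

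Of all genes tested, 5.47% were at least 2-fold lower, 11.9% at least 1.5-fold lower and 28.1% lower at any size. Of the 8 mevalonate-step genes these were 2 (25%), 3 (37.5%) and 5 (62.5%), with a median ratio of -0.42. The sterol steps, from squalene onwards, had a lower median, -0.85 over 10 genes. Of these, 4 (40%) were at least 2-fold lower, 7 (70%) at least 1.5-fold lower and 9 (90%) lower at any size. None of the 18 enzymes was higher, against 28.4% of all genes.

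The steps that commit carbon to sterols were each lower. FDFT1, squalene synthase, had 2176 reads (129 CPM) in CON and 695 reads (70.0 CPM) in SEV, with a ratio of -0.89 (interval -1.01 to -0.76). SQLE, the squalene epoxidase that acts as a control point of the later pathway, had 1420 and 537 reads (84.5 and 54.1 CPM) and a ratio of -0.64. LSS, which closes the rings to form lanosterol, had 759 and 316 reads (45.2 and 31.8 CPM) and a ratio of -0.50. The ratio thus varied among these consecutive enzymes, and of the 3 only LSS was under 1.5-fold. CYP51A1, the lanosterol demethylase that follows, held 2996 reads (178 CPM) in CON and 1105 reads (111 CPM) in SEV on LOC703490, or 62.4% of the CON level (ratio -0.68, interval -0.78 to -0.58).

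The enzymes that trim and reduce lanosterol held most of the low values. MSMO1, the methylsterol monooxygenase that starts removal of the methyl groups, had 3609 reads (215 CPM) in CON and 902 reads (90.8 CPM) in SEV. It stood at 42.3% of the CON level (ratio -1.24, interval -1.35 to -1.14). Its partners in demethylation were NSDHL, a sterol dehydrogenase, and HSD17B7, a keto-reductase. NSDHL had 485 and 163 reads (28.9 and 16.4 CPM) and a ratio of -0.81, and HSD17B7 had 397 and 112 reads (23.6 and 11.3 CPM) and a ratio of -1.06. All 3 genes of this demethylation complex were therefore lower by at least 1.5-fold.

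TM7SF2, a sterol reductase, had 1008 reads (60.0 CPM) in CON against 288 reads (29.0 CPM) in SEV, a ratio of -1.04 (interval -1.24 to -0.86). DHCR7, the reductase that turns dehydrocholesterol into cholesterol, had 686 reads (40.8 CPM) against 169 reads (17.0 CPM). At 41.7% of its CON level, DHCR7 had the lowest ratio of the list (-1.25, interval -1.51 to -1.02), and 3.63% of all genes tested had a ratio as low. The enzymes just before it differed much less. EBP, the sterol isomerase, had 633 and 351 reads (37.7 and 35.3 CPM), with an interval of -0.28 to 0.10 that included 0. SC5D, the sterol desaturase, had 4638 and 2342 reads (276 and 236 CPM), and its ratio of -0.23 (interval -0.30 to -0.15) was lower by a small amount. EBP and NSDHL are both X-linked genes, and of the pair NSDHL alone was lower. Whether the sex of the animals bears on either gene was not tested.

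**Figure D2:**
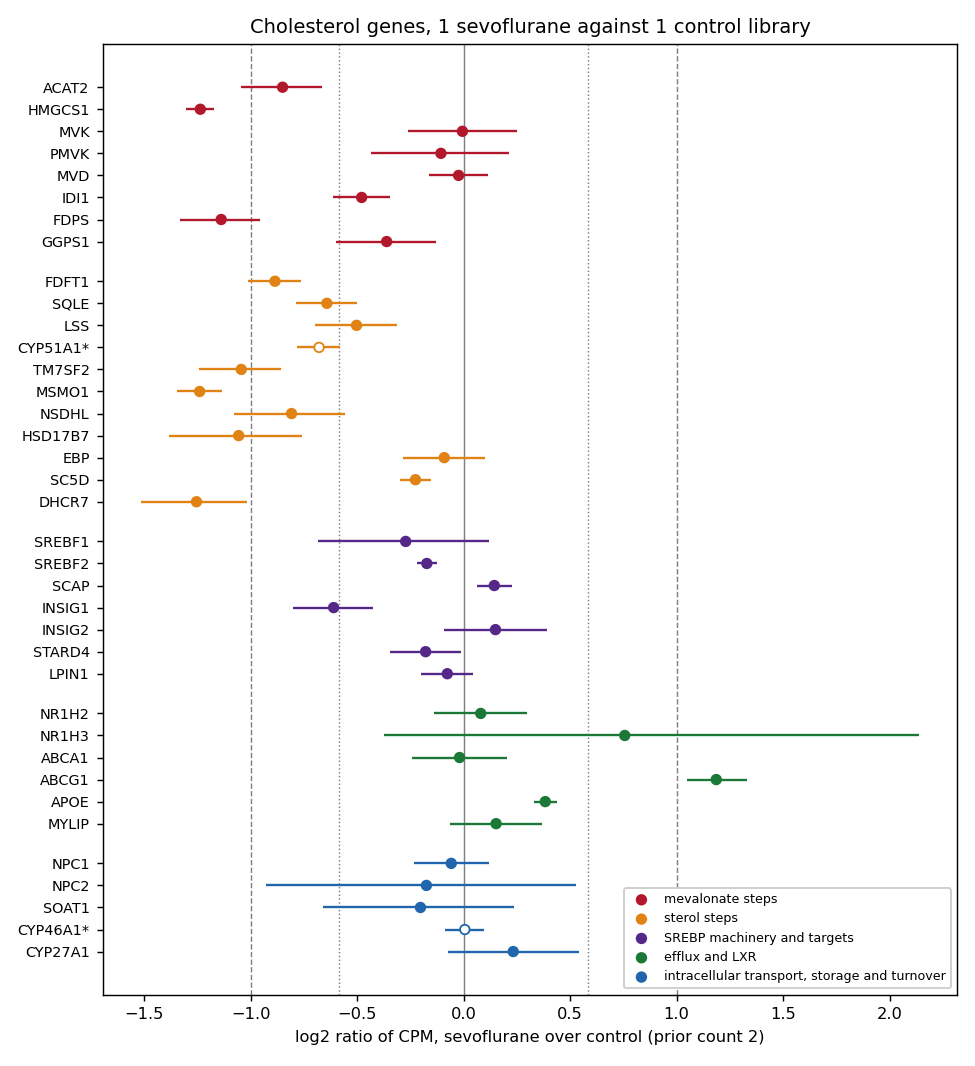
Log2 ratio of CPM (sevoflurane over control, prior count of 2) for each cholesterol gene, with its 95% exact counting interval as a bar. Dotted and dashed lines mark 1.5-fold and 2-fold, and open circles with an asterisk are the 2 genes matched by identifier. The enzymes (red and orange) lie at or to the left of 0, down to -1.25 for DHCR7, while ABCG1 (green) lies at 1.19.

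The genes that sense sterols and switch the pathway differed less than the enzymes. SREBF2, which encodes SREBP-2, had 10530 reads (627 CPM) in CON and 5518 reads (556 CPM) in SEV, so it stood at 88.7% of CON (ratio -0.17, interval -0.22 to -0.13). SCAP, the escort of SREBP, was slightly higher in SEV, with 3082 and 2012 reads (183 and 203 CPM) and a ratio of 0.14 (interval 0.06 to 0.23). SREBF1, the gene of SREBP-1, which mainly drives fatty acid genes, had 162 and 79 reads. Its interval of -0.68 to 0.12 included 0, and at this depth a difference of that size was not detectable.

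INSIG1 was the gene of the SREBP system that differed most. INSIG1 retains SCAP and is itself a target of SREBP. It had 849 reads (50.5 CPM) in CON and 328 reads (33.0 CPM) in SEV, or 65.4% of the CON level (ratio -0.61, interval -0.80 to -0.43). INSIG2, its paralog that depends less on SREBP, had 366 and 240 reads (21.8 and 24.2 CPM), and its interval of -0.09 to 0.39 lay wholly above that of INSIG1. The other SREBP targets of the list had smaller ratios. STARD4, a carrier of cholesterol between membranes, had 870 and 454 reads (51.8 and 45.7 CPM) and a ratio of -0.18 (interval -0.35 to -0.01). LPIN1, a phosphatidate phosphatase, had 1530 and 857 reads (91.0 and 86.3 CPM) and an interval of -0.20 to 0.04. Of these 7 genes 3 were lower (42.9%, against 28.1% of all genes) and 1 higher (14.3%, against 28.4%), with a median ratio of -0.17. INSIG1 was the only gene past 1.5-fold. That share, 14.3%, was near the 11.9% of all genes at least 1.5-fold lower. With scaling by library totals alone INSIG1 stood at -0.58, just under that threshold.

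Besides SCAP, the 2 genes of the list that were higher in SEV act in efflux. They were 2 of the 6 efflux and LXR genes (33.3%), near the 28.4% of all genes that were higher. Only 1 of the 6 was at least 2-fold higher (16.7%, against 7.56% of all genes). ABCG1, a transporter that exports cholesterol to lipoprotein particles, had 735 reads (43.7 CPM) in CON and 990 reads (99.7 CPM) in SEV, more reads in SEV even though that library was the shallower. Its level in SEV was 228% of that in CON (ratio 1.19, interval 1.05 to 1.33), and 94.0% of all genes tested had a ratio as low or lower. APOE, the main lipid-carrying apolipoprotein of the brain, made chiefly by astrocytes, had 6646 reads (395 CPM) in CON and 5122 reads (516 CPM) in SEV. It stood at 130% of CON (ratio 0.38, interval 0.33 to 0.44).

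ABCA1 and MYLIP, which LXR drives as it does ABCG1, and the LXR genes themselves had intervals that included 0. ABCA1, the transporter that loads lipid onto apolipoproteins, had 458 reads (27.3 CPM) in CON and 267 reads (26.9 CPM) in SEV, with an interval of -0.24 to 0.20. MYLIP, a ubiquitin ligase that degrades lipoprotein receptors, had 446 and 293 reads (26.5 and 29.5 CPM) and an interval of -0.06 to 0.37. The intervals of both lay wholly below that of ABCG1. NR1H2, the gene of LXR beta, had 461 and 288 reads (27.4 and 29.0 CPM) and a ratio of 0.08. NR1H3, the gene of LXR alpha, had 12 and 13 reads (0.71 and 1.31 CPM) and passed the filter only through the SEV library, so its interval of -0.37 to 2.14 allowed for most differences. The median ratio of these 6 genes was 0.27, and 0.15 without NR1H3.

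Transport out of the lysosome, storage and turnover were not distinguishable between the libraries. NPC1, which moves cholesterol out of the lysosome, had 735 reads (43.7 CPM) in CON and 417 reads (42.0 CPM) in SEV, with an interval of -0.24 to 0.12. NPC2, its soluble partner, had 50 and 26 reads, and SOAT1, which esterifies cholesterol for storage, had 127 and 65 reads. Their intervals, -0.93 to 0.53 and -0.66 to 0.23, were wide because few reads lay behind them. CYP27A1, a sterol hydroxylase of mitochondria, had 220 and 153 reads (13.1 and 15.4 CPM) and an interval of -0.07 to 0.54. CYP46A1, the neuronal hydroxylase through which most cholesterol leaves the brain, had 2610 reads (155 CPM) in CON and 1548 reads (156 CPM) in SEV on LOC705843. At a ratio of 0.01 (interval -0.09 to 0.10), CYP46A1 differed by under 1.5-fold at either end of its counting interval.

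**Figure D3:**
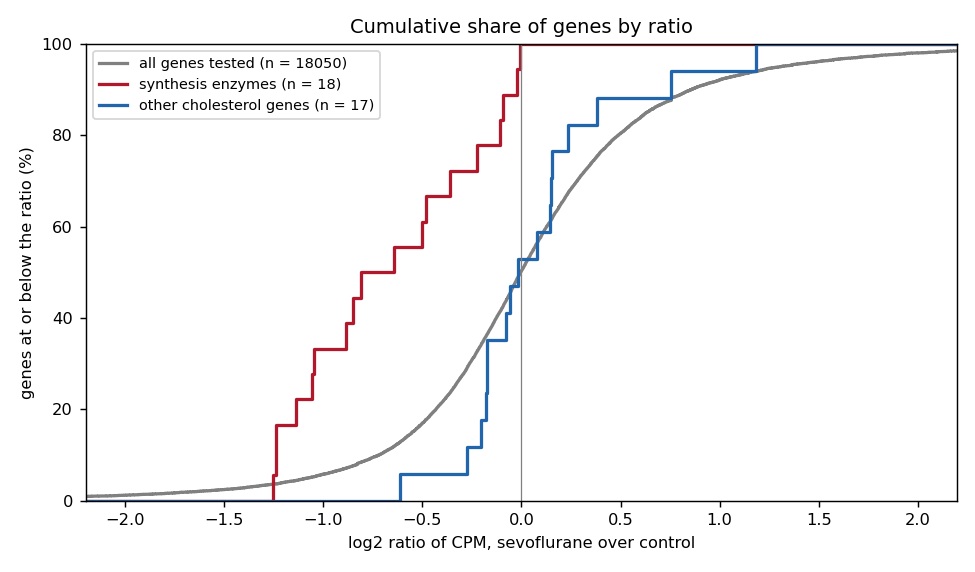
Cumulative share of genes (in percent, vertical axis) at or below each log2 ratio of sevoflurane over control (horizontal axis) for all 18050 genes tested (grey), the 18 synthesis enzymes found by symbol (red) and the 17 other cholesterol genes (blue). The red curve reaches 100% before 0 and has its median at -0.73, while the blue curve has its median at -0.02, near that of all genes. The curves describe 2 libraries, with no test.

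Genes of neighbouring pathways were then read from lists set out beside the members. Fatty acid synthesis, which SREBP also drives, was lower for 10 of 11 genes (90.9%, against 28.1% of all genes), with a median ratio of -0.35. At least 1.5-fold lower were 3 (27.3%, against 11.9%), and none was at least 2-fold lower (against 5.47%). The lowest were ELOVL6, a fatty acid elongase (50.8 CPM in CON and 28.3 CPM in SEV, ratio -0.84), and SCD, the desaturase that makes monounsaturated fatty acids (344 and 219 CPM, ratio -0.65). The highest were FASN, the fatty acid synthase (628 and 600 CPM, ratio -0.07), and ACSS2, an acetyl-CoA synthetase (ratio -0.14, interval -0.34 to 0.06).

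The non-sterol branch of the isoprenoid pathway, which makes dolichol, ubiquinone tails and prenyl anchors, had 11 genes tested and a median of -0.38. Of these 7 were lower (63.6%, against 28.1% of all genes) and 3 higher (27.3%, against 28.4%). DHDDS, of dolichol synthesis, had 256 and 85 reads (ratio -0.82), and COQ2, of ubiquinone synthesis, had 199 and 68 reads (ratio -0.78). At the other end, PDSS1, which makes the ubiquinone side chain, had 100 and 86 reads (ratio 0.53), and RABGGTA, a subunit of a prenyltransferase, had 377 and 301 reads (ratio 0.43).

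Of 30 further sterol handling genes 29 matched by symbol and 28 were tested, of which 8 were lower (28.6%, against 28.1% of all genes) and 6 higher (21.4%, against 28.4%), with a median of -0.05. Their share of lower genes was thus that of all genes tested. None was at least 2-fold lower (against 5.47% of all genes) or at least 2-fold higher (against 7.56%). None was at least 1.5-fold lower (against 11.9%), and 1 was at least 1.5-fold higher (against 14.4%). The lowest were ABCA7, a lipid transporter (65.8 and 44.6 CPM, ratio -0.56), and STARD3, a carrier on late endosomes (37.2 and 27.7 CPM, ratio -0.42). The highest were GRAMD1B, a sterol carrier with only 28 and 29 reads (ratio 0.76, interval 0.01 to 1.61), and SCARB1, a lipoprotein receptor (102 and 149 CPM, ratio 0.54). The activating proteases of SREBP had ratios of -0.03 for MBTPS1 and 0.06 for MBTPS2 and intervals that included 0.

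Because myelinating oligodendrocytes are known to make much cholesterol, markers of cell types were set beside the enzymes. All 10 markers of mature oligodendrocytes and myelin were lower, against 28.1% of all genes. At least 2-fold lower were 8 of them (80%), against 5.47% of all genes. The median of the 10 was -1.30, with a summed level of 2437 CPM in CON and 1333 CPM in SEV. None of these markers was at 0 in either library. MOG, a glycoprotein on the outer face of the myelin sheath, had 1396 reads in CON and 220 in SEV (ratio -1.90), and MYRF, the transcription factor of myelinating cells, had 1268 and 285 (ratio -1.39). The summed myelin markers stood at 54.7% of CON and, without MBP, at 42.5%, beside 58.5% for the synthesis enzymes and 65.4% without HMGCS1. Whether the myelin markers account for the level of the enzymes was not tested. In bulk tissue, fewer cells of a type and less RNA per cell cannot be told apart.

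Among 9 genes of myelin lipid synthesis outside cholesterol, 5 were lower and none higher, against 28.1% and 28.4% of all genes, with a median of -0.49. UGT8, which makes galactosylceramide, had 523 and 128 reads (31.1 and 12.9 CPM, ratio -1.26), and ASPA, which releases acetate for lipid synthesis in oligodendrocytes, had 125 and 33 reads (ratio -1.13). The highest were ELOVL7 (ratio 0.24) and SGMS1 (ratio -0.08). The intervals of ELOVL7, SGMS1, GAL3ST1 and FA2H included 0.

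Markers of other cells were set beside the shares of all genes tested, 28.1% lower and 28.4% higher. Of 7 markers listed under oligodendrocyte precursors 6 were lower (85.7%), with a median of -0.33 and sums of 506 and 363 CPM. OLIG1, OLIG2 and SOX10 of this list are not particular to precursors, so it does not set these cells apart from mature oligodendrocytes. GPR17, which marks cells about to mature, was the 1 of the 7 past 2-fold (100 and 41.0 CPM, ratio -1.29). That was 14.3% of the list, against 5.47% of all genes. Of 9 astrocyte markers 7 were lower (77.8%) and 2 higher (22.2%), with a median of -0.47 and sums of 6662 and 4662 CPM. Their sum in SEV was 70.0% of CON and 84.3% without GFAP (2121 and 832 CPM), while SLC1A3 (1079 and 1303 CPM) and SOX9 (22.9 and 45.6 CPM) were higher. AQP4 had the lowest ratio of these 9 (368 and 141 CPM, ratio -1.38). Both AQP4 and GFAP were at least 2-fold lower, or 22.2% of the list against 5.47% of all genes. Of 9 neuron markers 6 were lower (66.7%) and 2 higher (22.2%), with a median of -0.23 and sums of 8429 and 7222 CPM. Beside them, the neuronal CYP46A1 had a ratio of 0.01.

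Microglia can express APOE and ABCG1 too. Of their 8 markers 4 were higher (50%, against 28.4% of all genes) and 1 lower (12.5%, against 28.1%). Their median was 0.32, with sums of 233 and 258 CPM. C1QB, a complement subunit, was the 1 past 2-fold (10.4 and 26.8 CPM, ratio 1.35). That was 12.5% of the list, against 7.56% of all genes. The other higher markers were the complement genes C1QA (ratio 0.55) and C1QC (ratio 0.97), and CSF1R (ratio 0.22). P2RY12 was the lower one (ratio -0.52), and the intervals of CX3CR1, AIF1 and TMEM119 included 0. Of 6 endothelial markers 1 was higher and 1 lower (16.7% each, under the shares of all genes), with sums of 186 and 189 CPM. Of 4 meningeal fibroblast markers 2 were higher (50%) and none lower, with sums of 203 and 344 CPM. None of the precursor, astrocyte, neuron, microglia, endothelial or fibroblast markers was at 0 in either library. Of the choroid plexus markers, TTR was higher, with 2 reads in CON and 31 in SEV (interval of the log2 ratio 2.74 to 7.82), and FOLR1 had 0 and 3. The red blood cell gene HBB had 350 reads (20.8 CPM) in CON and 672 reads (67.7 CPM) in SEV, a ratio of 1.69. ALAS2 had 5 and 11 reads (ratio 1.49, interval 0.25 to 3.77), and SLC4A1 had 2 and 0 reads. Like TTR, ALAS2 passed the filter only through SEV, where it was higher. SLC4A1 did not pass the filter, so no count is drawn from the red cell genes. The part of these cells in the values of ABCG1, APOE or the enzymes was not tested.

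**Figure D4:**
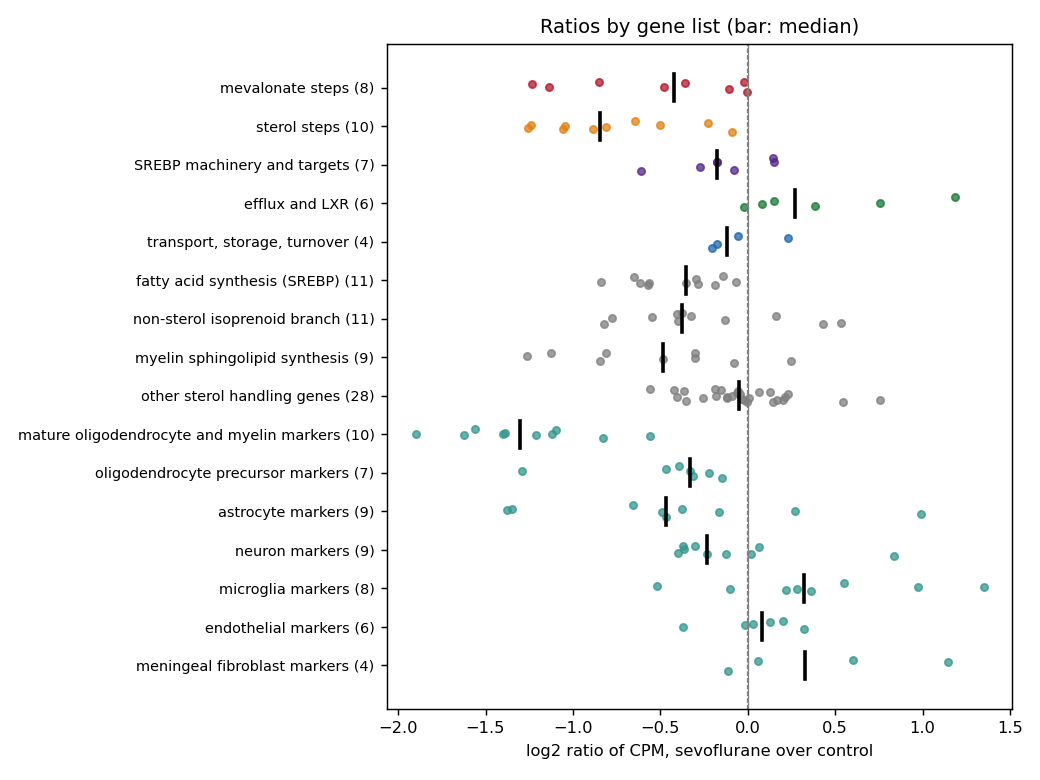
Log2 ratio of CPM (sevoflurane over control) for each tested gene of the cholesterol role groups (coloured), the neighbouring pathway lists (grey) and the cell type marker lists (teal), with black bars at the median and the number of genes in brackets. The dashed line is the median of all genes tested, next to 0. Mature oligodendrocyte and myelin markers have the lowest median (-1.30), followed by the sterol steps (-0.85), while the efflux and LXR genes have a median of 0.27, or 0.15 without NR1H3, which passed the filter only through SEV.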

How the data were processed

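Total RNA of prefrontal cortex was sequenced by the authors, who aligned reads with HISAT2 2.0.4 per the submitters' processing notes. The values deposited by the authors are raw counts, whole numbers of reads for each gene. The counting tool, genome build and annotation are not given in the sources used here, so no coordinates and no sequences are given. No transcript lengths were available for these gene models, so levels are not compared between genes.

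Libraries were assigned to CON and SEV by their titles. Counts were scaled with TMM factors from edgeR 4.0.16 (R 4.3.3) over the genes that reached 1 CPM in at least 1 library. Log2 ratios used a prior count of 2, with exact Clopper-Pearson 95% intervals. A gene was counted past a fold when its ratio reached 2-fold or 1.5-fold and its interval excluded equal expression. Since neither group had a second library, no quasi-likelihood test and no p-value was computed. Molecular identifiers are not mentioned in the sources, so reads may not be independent molecules. The floor of 3 reads was 0.179 CPM in CON and 0.302 CPM in SEV.

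The members and lists were chosen with earlier results of these data known. An item of the marker lists is not reported here. All members are described, and of each neighbouring list the 2 lowest and 2 highest ratios (MBTPS1, MBTPS2 and the named markers were added after their values were seen). The match of CYP51A1 and CYP46A1 by identifier was also made after seeing the data. The procedure was tested on simulated counts with 200 genes changed 4-fold and with counting error only. Differences between animals were not simulated, so that test does not bear on them. Plots were drawn with matplotlib 3.10.9 (Python 3.11.15). Ratios and counts were recomputed with other scalings (size factors of DESeq2 1.42.0, upper quartile, or totals alone), a prior of 0.5, a lower (1 read) and a higher (5 CPM) filter, CON reads thinned to the SEV total, a stricter interval, and with the 2 genes matched by identifier.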

Additional observations from a re-analysis of the deposited data

How the results depend on the processing

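All 175 ratios of single cholesterol genes recomputed with another scaling, another prior count or the control library sampled down stayed within their 95% counting interval. These alternatives reuse the same reads, and another scaling moves all ratios alike, so little movement was possible. They do not bear on differences between animals. The number of cholesterol genes at least 2-fold lower was 6 and at least 2-fold higher 1 under every alternative. The number at least 1.5-fold lower ranged from 10 with library totals, where INSIG1 stood just under the threshold, to 12 with CYP51A1 added. The median of the synthesis enzymes ranged from -0.73 to -0.68. The median of the other cholesterol genes, -0.02, lay so near to 0 that it turned to 0.0071 with library totals, which moved all ratios up alike. Under the higher filter (5 CPM), with fewer genes tested, 570 of all genes were at least 2-fold higher, 501 at least 2-fold lower and 1581 at least 1.5-fold higher, against 1364, 988 and 2604. No paired analysis was possible because CON and SEV have 1 library apiece, and no replicate could be left out. Depth limits NR1H3, NPC2, SOAT1 and SREBF1, whose intervals were the widest.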
